A study of Homo sapiens with 4 samples.

Results

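The metallothionein gene cluster of chromosome 16 and the zinc exporter gene SLC30A1 of chromosome 1 were examined for ATF3 signal. All peaks of the 4 deposited lists that shared at least 1 bp were merged, and the regions were kept that overlap, in build hg19, chromosome 16 from 56590000 to 56740000 or SLC30A1 (chromosome 1 from 211748381 to 211752099) with 20 kb on each side. This left 15 of 44826 regions on chromosomes 1 to 22 and X, of which 14 lay in the cluster and 1 beside SLC30A1. The 9 genes named with these windows are MT2A, MT1E, MT1M, MT1A, MT1F, MT1G, MT1H, MT1X and SLC30A1. No annotation of hg19 was used here, so a region of the cluster is given by its position and is not assigned to one of its genes.

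SW480 is an established line from a human colorectal adenocarcinoma. One culture condition was full medium and the other was medium short of cystine, the cysteine dimer that cells take up, each for 24 h and with 2 libraries per medium and about 100000 cells per library. ATF3, a bZIP transcription factor induced by cell stress, was mapped by CUT&Tag, in which an antibody (Abcam ab254268) brings a transposase to chromatin that cuts and tags the DNA nearby. Both media share the same line, antibody and kit, and no library made without the antibody was used here, so that tags left at ATF3 and tags left by other cutting of open chromatin cannot be told apart.

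Metallothioneins are small cytosolic proteins in which cysteine residues hold zinc and copper, and they also bind cadmium. Their genes are induced by zinc through the zinc-finger factor MTF1, which binds metal response elements in their promoters, and by oxidative stress and glucocorticoids. SLC30A1 encodes the zinc exporter ZnT1 of the plasma membrane, which is induced through the same factor and carries zinc out of the cell. ATF3 can pair with JUN proteins, the partners of FOS in AP-1, and the promoter of MT2A is one of those on which the AP-1 site was first described.

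The bases before the gene starts show what such factors could read at these genes. RefSeq orders 15 genes from MT2A to MT1X, among them MT1B, several pseudogenes and 1 long noncoding RNA. The RefSeq promoter sequences of build GRCh38.p14 held 4 of the 9 genes: MT2A, MT1H, MT1X and SLC30A1. The 250 bases before each start are shown 5′ to 3′ on the gene's strand. They are shown for their matches to the metal response core and, in MT2A, to the AP-1 site. Capitals mark the metal response core (TGCACNC or TGCGCNC, on either strand) and the AP-1 site TGACTCA. The positions are in GRCh38.p14 and cannot be set beside the hg19 positions of the peaks.
MT2A (chr16:56608334-56608583, plus strand): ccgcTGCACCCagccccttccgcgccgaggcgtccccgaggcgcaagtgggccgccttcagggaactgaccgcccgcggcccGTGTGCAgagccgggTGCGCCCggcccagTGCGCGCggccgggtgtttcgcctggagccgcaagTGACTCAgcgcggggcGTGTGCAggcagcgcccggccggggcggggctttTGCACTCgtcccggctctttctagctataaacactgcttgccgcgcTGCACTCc
MT1H (chr16:56669564-56669813, plus strand): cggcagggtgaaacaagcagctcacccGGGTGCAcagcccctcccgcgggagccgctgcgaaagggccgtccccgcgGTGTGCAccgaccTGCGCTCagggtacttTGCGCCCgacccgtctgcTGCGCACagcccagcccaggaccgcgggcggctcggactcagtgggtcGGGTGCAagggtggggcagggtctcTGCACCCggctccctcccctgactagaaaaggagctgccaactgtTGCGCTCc
MT1X (chr16:56682220-56682469, plus strand): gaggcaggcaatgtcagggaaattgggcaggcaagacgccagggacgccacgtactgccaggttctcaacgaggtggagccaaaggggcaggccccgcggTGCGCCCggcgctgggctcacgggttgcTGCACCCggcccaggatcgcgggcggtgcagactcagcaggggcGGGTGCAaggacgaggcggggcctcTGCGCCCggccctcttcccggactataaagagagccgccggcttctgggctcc
SLC30A1 (chr1:211579162-211579411, minus strand): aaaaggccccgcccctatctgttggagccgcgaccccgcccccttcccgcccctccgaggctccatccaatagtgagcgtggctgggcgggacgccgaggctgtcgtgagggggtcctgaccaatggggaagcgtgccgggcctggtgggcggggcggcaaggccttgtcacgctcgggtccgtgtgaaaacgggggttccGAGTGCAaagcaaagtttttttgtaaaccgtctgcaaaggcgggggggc

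The 3 metallothionein promoters with a sequence were dense in matches to the metal response core. MT2A had 7 matches, MT1H 8 and MT1X 4, whereas SLC30A1 had 1. Of 35116 promoter sequences of this length, 24.8% held at least 1 match and 0.370% held 4 or more. The broader word TGCNCNC gave the same 7, 8, 4 and 1 matches. At least 1 match of it was held by 49.1% of all promoters, and 4 or more by 1.77%. A match lay within bases -54 to -47 before the start of each of the 3 metallothionein genes, and another at bases -78 to -72 of both MT1H and MT1X. These promoters were also rich in G and C, at 73.2% in MT2A, 70.4% in MT1H and 70.0% in MT1X, against a median of 58.0% over all promoters.

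An AP-1 site, TGACTCA, was found in MT2A alone of the 4 genes, from base -104 to -98, and 4.20% of all promoters held one on either strand. The looser TGANTCA, which includes the AP-1 word, matched the same place in MT2A only, and it was present in 6.57% of all promoters. The shorter word GACTCA, searched after the sequences had been seen, lay inside the AP-1 site of MT2A and at bases -91 to -86 of MT1H and -92 to -87 of MT1X, and 10.6% of all promoters held it. Neither the CRE word TGACGTCA (1.65% of all promoters) nor the C/EBP-ATF word TGATGNAA (3.14%) occurred in any of the 4 sequences. Aligned end to end, the promoters of MT1H and MT1X were 62.9% identical, and each of them was 55.2% or 55.3% identical to that of MT2A. The SLC30A1 promoter, aligned in the same way, was 52.0% identical to that of MT2A, 49.7% to MT1H and 52.3% to MT1X. The values for MT2A were thus only slightly above those for a gene outside the cluster. A word match describes these letters only and is not evidence of binding.

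**Figure D1:**
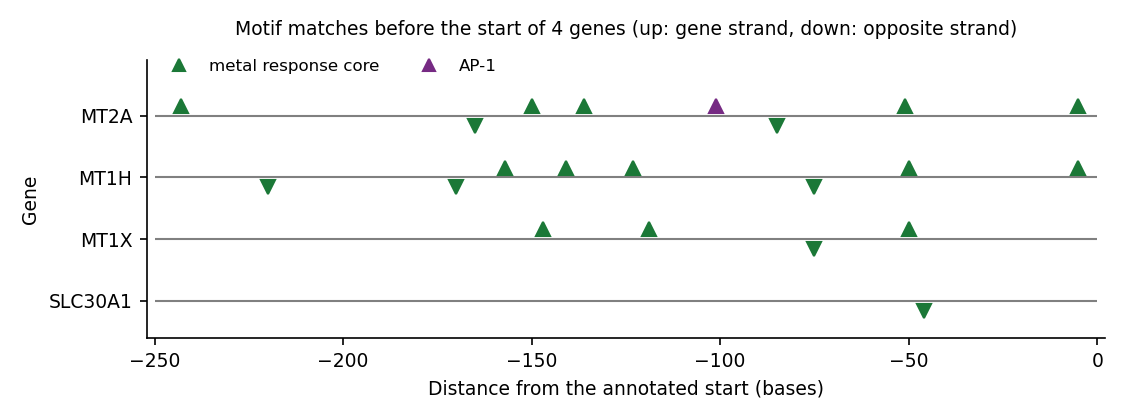
Positions of the metal response core (green) and the AP-1 site (purple) in the 250 bases before the start of 4 genes, with the distance from the annotated start in bases on the horizontal axis and 1 line per gene. Triangles pointing up are matches on the gene's strand and triangles pointing down are on the opposite strand; MT2A, MT1H and MT1X have 7, 8 and 4 metal response matches, SLC30A1 has 1, and the AP-1 site is in MT2A.

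The zinc exporter gene had a listed peak in only 1 of the 4 libraries. In cystine-restricted replicate 2 a peak lay on chromosome 1 from 211752551 to 211752928, starting 452 bp beyond the upper end of the SLC30A1 interval. The gene is on the minus strand, so this is the side of its start. The RefSeq gene in GRCh38.p14 is 7594 bp long and the interval used here 3719 bp, so the distance depends on the gene model. The summit pileup, which is the number of tags stacked at the highest point, was 11 tags. That was 10.1 times the genome background, the pileup expected if all tags were spread evenly. The deposited fold enrichment was 4.92 and the −log10 q 4.53, which ranked the peak at percentile 32.1 of its list by −log10 p. The nearest peaks of the other libraries lay 34.5 kb from the interval in cystine-restricted replicate 1 and 64.6 kb in both full-medium libraries. At the genome background those 3 libraries would have listed a pileup of 7 tags, and their values at this place below the threshold are not known. With a single library, no difference between the media can be stated for SLC30A1.

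The metallothionein cluster was dense in regions. Its 14 regions lay within 102.6 kb, from 56634437 to 56737000, and the first 44.4 kb of the window held none. Only 1.008% of 20237 windows of the same length laid end to end along the chromosomes held 14 or more regions, and the median window held 1. Those windows were not matched for gene content, whereas the cluster window was placed on genes, so the share is a description. Regions of a single library were counted in both. The widest interval without a region inside the occupied stretch was 27.9 kb, between 56660324 and 56688229. Regions were 150 to 927 bp wide.

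Presence in the lists was spread over the libraries much as in the genome. Of the 15 regions, 4 (26.7%) had a peak in all 4 libraries, and 23.0% of all regions did. The pattern of 2 cystine-restricted peaks with no full-medium peak was found in 1 region (6.67%), where the share over all regions was 12.7%. No region had the reverse pattern, which 0.386% of all regions show. Another 2 regions had peaks in both cystine-restricted libraries and 1 full-medium library, 2 had them in replicate 2 of each medium, and 6 (40.0%, against 46.4% of all regions) in a single library. By library, cystine-restricted replicates 1 and 2 listed 9 and 14 peaks in the 2 windows and full-medium replicates 1 and 2 listed 6 and 8. The means were 11.5 ± 3.5 and 7.0 ± 1.4 peaks (SD, n = 2 each), a ratio of 1.64, where the ratio over all peaks was 1.73. Each cystine-restricted library had more than each full-medium library, and the two-sided exact permutation p of 0.33 is the smallest that 2 against 2 libraries allow. The labels say only that the libraries of a medium are separate samples, so tests between them measure their spread, which may be technical.

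**Figure D2:**
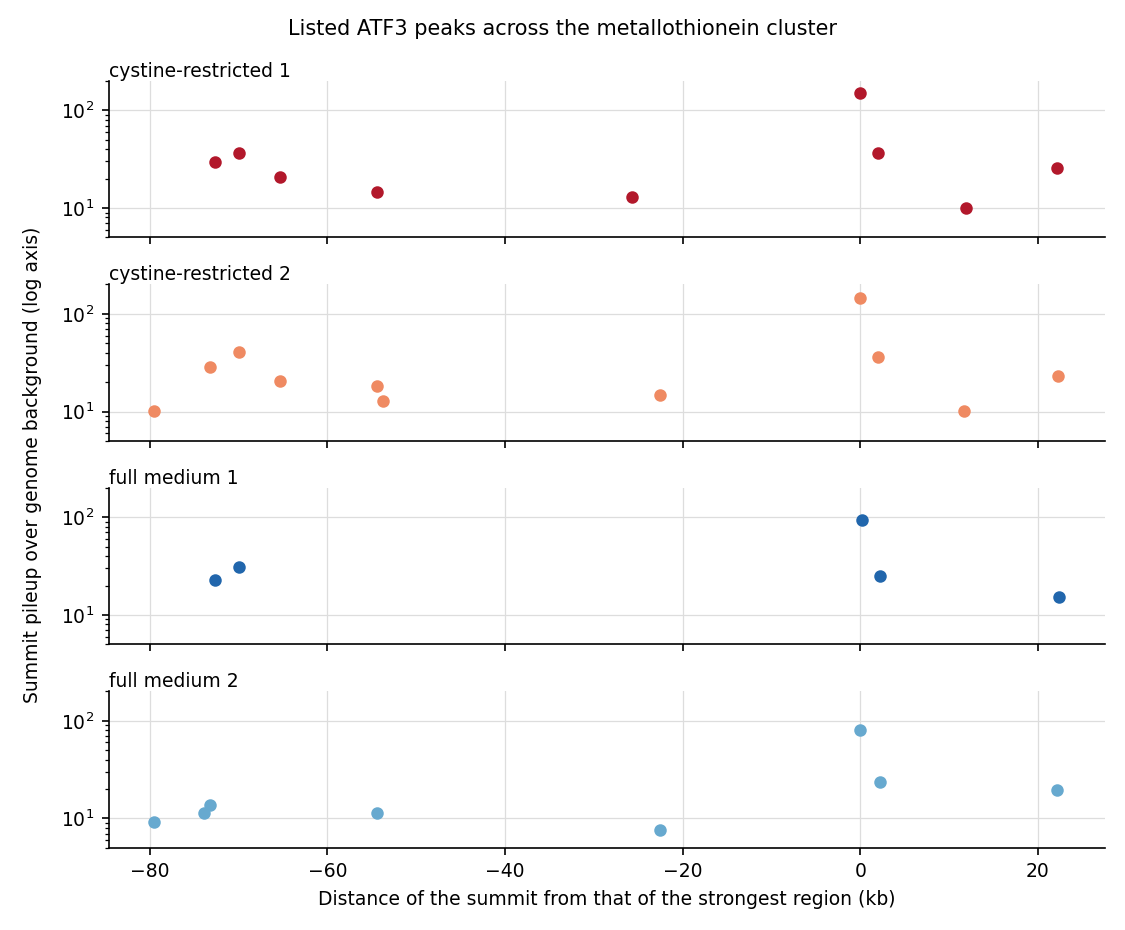
Summit pileup over the genome background (log axis) of each listed peak of the metallothionein cluster, 1 panel per library, against the distance of its summit in kb from the summit of the strongest region in cystine-restricted replicate 1. Each point is the highest peak of a region in that library. The point of the strongest region stands highest in all 4 panels, near 0 kb and, in full-medium replicate 1, at 0.25 kb. It lies at 151, 146, 94.0 and 80.4 times the background, and replicate 2 of the cystine-restricted medium has the most points.

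The strongest region of the cluster was on chromosome 16 from 56713565 to 56714491, 927 bp wide. The summit pileup of its cystine-restricted replicates 1 and 2 was 196 and 158 tags, against 104 and 106 tags for the full-medium replicates. Over the genome backgrounds of 1.30, 1.08, 1.11 and 1.32 tags this makes 151, 146, 94.0 and 80.4 times the background. Both cystine-restricted libraries stood above both full-medium ones. Within its own list the peak ranked at percentile 99.4, 99.3, 98.4 and 98.3, so it was among the strongest of each library. The summits of 3 libraries lay within 5 bp of each other, at 56714025, 56714029 and 56714024, whereas that of full-medium replicate 1 was at 56714275. On the log2 scale the pileup over background was 7.21 ± 0.04 under cystine restriction and 6.44 ± 0.16 in full medium (SD, n = 2 each). It rose by 0.77 (95% interval 0.47 to 1.08), or 1.71-fold, with an adjusted p of 1.0e-04 by limma across all 10331 regions that have a peak in all 4 libraries.

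A weaker region lay 1313 bp beyond it, from 56715805 to 56716346. Its summit pileup was 48 and 39 tags under cystine restriction and 28 and 31 tags in full medium, which is 37.0 and 36.0 against 25.3 and 23.5 times the background. The media did not overlap. The difference of 0.58 in log2 pileup (0.11 to 1.05), or 1.50-fold, passed limma with an adjusted p of 0.039. Its deposited folds were low, 3.31 and 3.26 against 3.45 and 3.54, since the fold is taken over the local background and the strong neighbour lies within the same 10 kb. Its summits were at 56716012 and 56716026 under cystine restriction and at 56716236 and 56716244 in full medium, so they grouped by medium. The summits of the other regions with a peak in all 4 libraries did not. No test of summit position was made.

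At the other end of the occupied stretch, a region with a peak in all 4 libraries spanned 56640704 to 56641484. It had 38 and 31 tags under cystine restriction and 25 and 18 in full medium, or 29.3 and 28.6 against 22.6 and 13.7 times the background. The full-medium libraries differed more from each other than the cystine-restricted ones, yet both lay lower. The rise of 0.72 in log2 pileup (0.18 to 1.26), or 1.65-fold, had a limma adjusted p of 0.028. Without full-medium replicate 2, the lowest library, the difference was 0.36 with an adjusted p of 0.35. This region held 2 peaks in each of cystine-restricted replicate 2 and full-medium replicate 1 and a single peak in the other libraries, and its summits were spread over 530 bp. For replicates 1 and 2 they were at 56641369 and 56640845 under cystine restriction and at 56641336 and 56640839 in full medium. The pileups of a medium were thus taken at different places within the region.

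The last region found in all libraries lay from 56736108 to 56737000. Its pileup was 33 and 25 tags under cystine restriction and 17 and 26 tags in full medium, or 25.4 and 23.1 against 15.4 and 19.7 times the background. The summits of replicates 1 and 2 were at 56736204 and 56736243 under cystine restriction and at 56736460 and 56736222 in full medium. The log2 difference of 0.48 (-0.07 to 1.02) did not pass limma, with an adjusted p of 0.14, although the media did not overlap over the genome background. It was 0.30 without full-medium replicate 1 (adjusted p 0.41) and 0.66 without full-medium replicate 2 (0.10). Its deposited folds, 8.87, 6.60, 6.72 and 9.02, were higher than those of the region at 56715805 at lower pileups, because fewer tags lay around it.

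**Figure D3:**
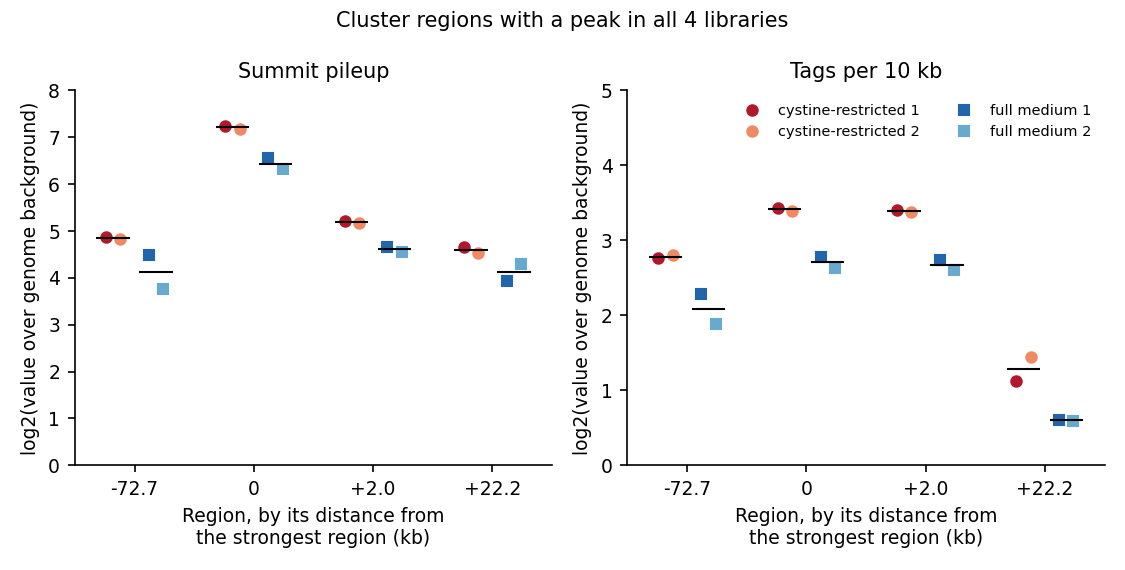
Values over the genome background on the log2 scale for the 4 cluster regions with a peak in all 4 libraries, named by their distance in kb from the strongest region (summits of cystine-restricted replicate 1). The left panel shows summit pileup and the right panel tags per 10 kb; points are libraries, short lines are means of 2 libraries, and both cystine-restricted points lie above both full-medium points in each region and panel.

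Across the 4 regions, 3 rose and none fell, where 43.2% of all 10331 regions rose and 0.407% fell. Both cystine-restricted libraries were above both full-medium ones in 4 of 4, and in 72.8% of all regions. The median difference of the 4 regions was 0.65 on the log2 scale and that of all regions 0.53 (interquartile range 0.29 to 0.78). Without cystine-restricted replicate 1 or 2, or without full-medium replicate 2, only 1 of the 4, the strongest, passed, and without the first of these 1868 of all regions were called higher. With each library centred on its median over these regions, which takes out the shift common to the genome, none of the 4 was called, where 4.96% of all regions were called higher. The centred differences were 0.15, 0.20, 0.01 and -0.09 in order along the chromosome, with limma adjusted p of 0.78, 0.34, 0.98 and 0.88, and the last region turned its direction. None of the 4 had an unadjusted p under 0.05 either (0.11 to 0.96). Over the local background, on the log2 scale of the deposited fold, the differences were 0.090, 0.12, -0.088 and -0.025 and none passed limma (adjusted p 0.51 to 0.95). Before centring, 4461 of the 10331 regions were called higher and 42 lower, and after it 512 were higher and 443 lower. The rise in pileup at the metallothionein cluster thus did not differ detectably from that of common regions in general, with intervals that reach from -0.61 to 0.65.

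**Figure D4:**
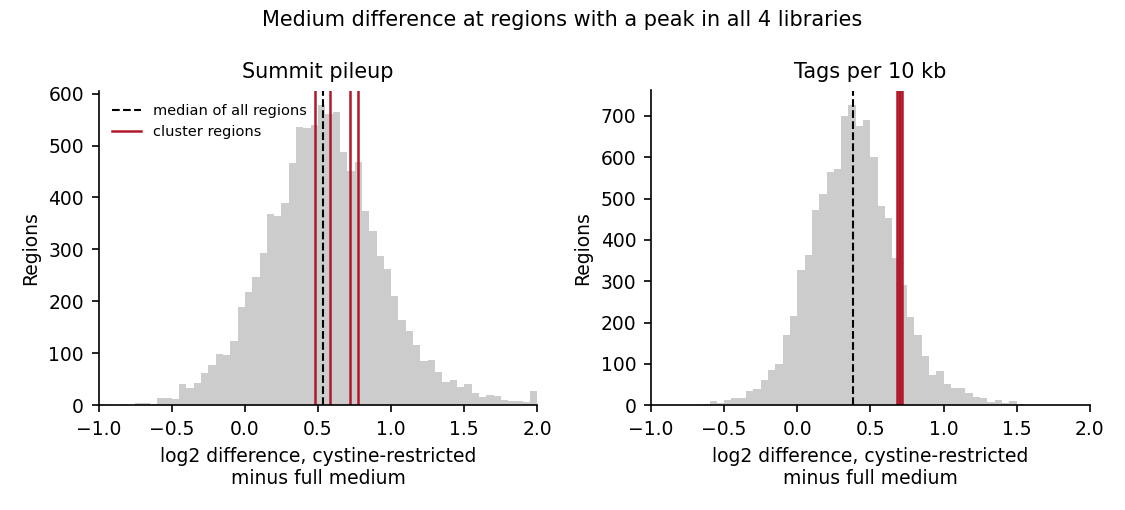
Histograms of the log2 difference between media (cystine-restricted minus full medium) over regions with a peak in all 4 libraries, for summit pileup (left) and tags per 10 kb (right), with the number of regions on the vertical axis; values beyond the axis are added to the end bars. Red lines are the 4 cluster regions and the dashed line is the median of all regions; the red lines lie around the median of 0.53 on the left and above the median of 0.38 on the right.

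The deposited values also give the number of tags in the 10 kb around each peak, since the local background of the peak caller is counted over that length. Around the strongest region there were 935 and 761 tags under cystine restriction and 508 and 546 tags in full medium. This tag density was 10.8, 10.5, 6.89 and 6.21 times that of the genome, at percentiles 95.4 to 98.0 of the peaks of each library. Around the region at 56640704 it was 6.78 and 6.96 against 4.89 and 3.69 times. The highest density in the part near it was found around 56643997 to 56644454, at 8.09 and 8.10 times under cystine restriction and 5.34 times in full-medium replicate 1. Next to it, at 56648558, it was 4.53 and 4.80 times under cystine restriction. At the listed peaks between these 2 dense stretches, and beyond them, the density was 1.18 to 2.71 times that of the genome. The strongest region and the region at 56643997 thus marked 2 separate stretches of high signal.

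Tag density rose at all 4 regions with peaks in every library. The log2 differences were 0.69, 0.71, 0.72 and 0.68 in order along the chromosome, or 1.62, 1.63, 1.64 and 1.61-fold, with limma adjusted p of 3.5e-06, 3.3e-07, 2.2e-07 and 6.8e-04. These p rest on 2 libraries per medium, with the spread pooled fully over regions. Without the variance trend the limma adjusted p of the 4 regions were 8.4e-05 to 1.8e-04. Of the 9469 regions whose local background exceeded that of the genome in each library, 53.2% rose and 0.739% fell, and the median difference was 0.38. In 74.5% of them both cystine-restricted libraries stood above both full-medium ones, as they did in 4 of 4 here. Centred on the median, the differences were 0.28, 0.30, 0.31 and 0.27, and 2 passed limma where 8.98% of all regions did. These were the strongest region (adjusted p 0.019) and its neighbour at 56715805 (0.015), and the others had adjusted p of 0.073 and 0.28. The windows of those 2 regions overlap for most of their length, so they count nearly the same tags, and each window includes the tags of its own summit. Over all regions the centring changed the calls from 5038 higher and 70 lower to 850 higher and 757 lower.

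**Figure D5:**
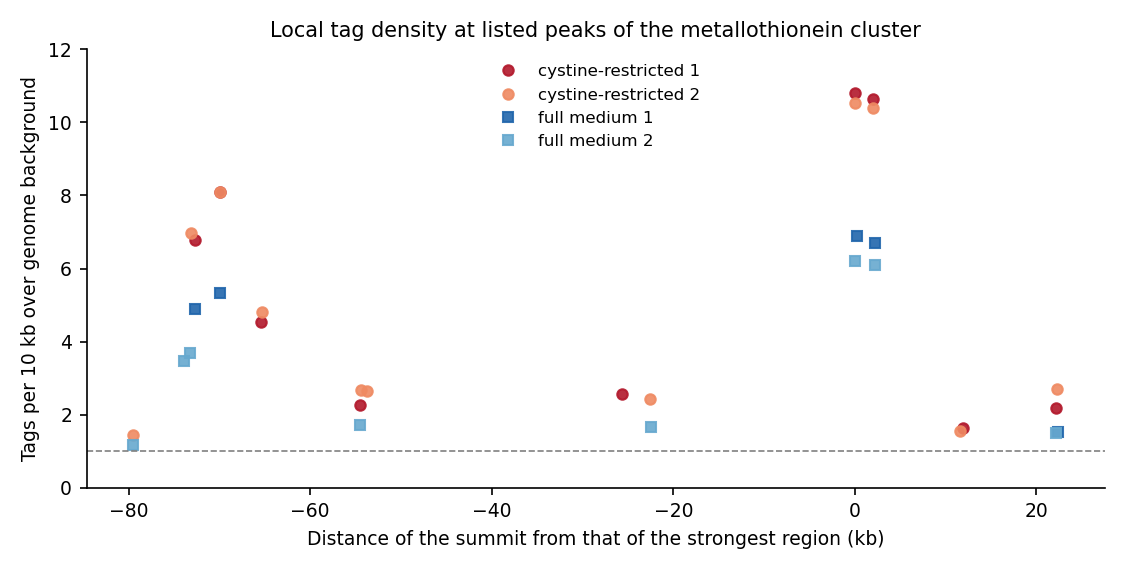
Tags per 10 kb around each listed peak of the cluster as a multiple of the genome background (vertical axis), against the distance of its summit in kb from the strongest region. Circles are cystine-restricted and squares full-medium libraries, and the dashed line marks the genome background; circles lie above squares around 0 kb (10.4 to 10.8 against 6.10 to 6.89) and around -72.7 kb.

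The regions with peaks in part of the libraries were described by their values alone. The region from 56643997 to 56644454 was listed in both cystine-restricted libraries, with 48 and 44 tags, and in full-medium replicate 1 with 34 tags, or 37.0, 40.6 and 30.7 times the background. Its 3 summits lay within 30 bp. Full-medium replicate 2 did not list it. At the background of its nearest listed peak, 3.39 kb away with 324 tags per 10 kb, that library would have needed 15 tags.

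The 1 region shared by the cystine-restricted libraries and not listed in full medium spanned 56648558 to 56648993. It had 27 and 22 tags, 20.8 and 20.3 times the background, at −log10 q of 7.49 and 5.21. The nearest listed peaks lay 4.67 kb away in full-medium replicate 1 and 7.94 kb away in replicate 2. At their backgrounds, 17 and 15 tags would have sufficed for listing, and at the genome background 7 tags in each library. The background of these libraries at this place is not known, so the pileup that would have gone unlisted is not known either. With the lists cut to equal length by strength, 0 regions of this kind were left in the windows.

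Near the middle of the cluster, the region from 56659201 to 56659782 was listed with 19 and 20 tags under cystine restriction and with 15 tags in full-medium replicate 2, or 14.6, 18.5 and 11.4 times the background. Its 3 summits, at 56659565, 56659590 and 56659564, agreed within 26 bp. The region from 56691382 to 56691725 was listed in replicate 2 of each medium, with 16 and 10 tags, or 14.8 and 7.59 times. A similar pair of peaks at 56634437 to 56634842 had 11 and 12 tags, or 10.1 times under cystine restriction and 9.10 times in full medium. Over the genome background the cystine-restricted value was the higher one in these 3 regions. At 56634437 the tags, the deposited fold (4.69 against 5.08) and the −log10 q (4.20 against 4.82) ran the other way. No test was made because libraries are missing.

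Regions of a single library were weak. Cystine-restricted replicate 1 alone listed 56688229 to 56688620 with 17 tags, the highest of this kind, and 56725927 to 56726076 with 13 tags. Replicate 2 of that medium alone listed 56659988 to 56660324 with 14 tags and 56725550 to 56725758 with 11, besides the peak beside SLC30A1. Full-medium replicate 2 alone listed a 150 bp region from 56640110 to 56640259, with 15 tags at a fold of 2.86 and a −log10 q of 1.90. At the denser backgrounds of the nearest listed peaks, 21 and 19 tags would have been needed there in cystine-restricted replicates 1 and 2, so at those backgrounds a peak of 15 tags would not have been listed in them. In full-medium replicate 1, 15 tags would have sufficed at the background of its nearest listed peak.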

How the data were processed

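ATF3 CUT&Tag peaks of 2 cystine-restricted and 2 full-medium libraries were used. The submitters' processing notes name MACS2 2.2.7.1, BWA 0.7.17, fastp 0.19.7 and bcl2fastq 2.17, with build hg19. Options of the peak caller, and whether reads were filtered on mapping quality, were not given in the sources used here. The metallothionein genes are close copies, so reads from one copy could be placed on another. The deposited lists, made per library by the authors, give each peak a fold (a ratio of summit pileup to local background), a −log10 p, a −log10 q of at least 1.30, and a score of 10 times the −log10 q. The deposited −log10 values were used within a list, and the folds also between lists, as an alternative scaling over the local background.

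The fold is (pileup + 1)/(background + 1) and the p is a Poisson tail, so both together fix pileup and background. A whole-number pileup matched the −log10 p within 0.1% for 100% of peaks. Backgrounds were the genome value or whole multiples of 0.015 tags (within 0.1 tags per 10 kb), as 150 bp tags over 10 kb give. The lists hold 17447 to 33838 peaks on chromosomes 1 to 22 and X. Read totals are not in the lists, and the genome background of 1.08 to 1.32 tags is proportional to depth.

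Pileup and background, each over the genome background and on the log2 scale, were compared by limma 3.58.1 (R 4.3.3, mean-variance trend, Benjamini-Hochberg over all regions fitted, threshold 0.05). For the tag density limma pooled the spread fully over regions. The highest peak of a library stood for a region. Merging, recovery (scipy 1.17.1) and limma steps were tested on simulated data. All regions with a peak in 2 or more libraries are named, and those of a single library are given by position and pileup. The members and lists were chosen with earlier results of these data known, and tag density was added after the data were seen. Alternatives were thresholds, overlap, flank, scaling, peak summary, variance trend, replicate block and leaving out each library. Further genes of the pathway, such as MTF1 and SLC30A10, were not analysed here. Same-numbered libraries deviated from their medium with a correlation of 0.01, and 2 numbers are too few to pair them.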

Additional observations from a re-analysis of the deposited data

How the results depend on the processing

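Scaling mattered most. Centring each library on its median left 512 regions higher and 443 lower in summit pileup, 0 of the 4 cluster regions higher and a median of 0.082 over them, and the local background (the deposited fold) left 512 higher, 3 lower, 0 of 4 and 0.033. The region at 56736108 turned to -0.092 and -0.025 under these settings, and that at 56715805 to -0.088 over the local background. Summing the peaks of a region gave 1603 higher and 16 lower with 1 of 4, and omitting the variance trend 3840 higher and 16 lower with 2 of 4. Leaving out each library gave 1868 (without cystine-restricted replicate 1) to 4913 regions higher, with 2754 without cystine-restricted replicate 2, 12 to 44 lower, 1 to 3 of 4 cluster regions higher and medians of 0.59 to 0.76. The strongest region passed limma in 9 of 11 alternatives (adjusted p 5.1e-08 to 0.51), those at 56640704 and 56715805 in 4 of 10 and 4 of 11 (0.0016 to 0.78 and 0.032 to 0.98), and that at 56736108 in 0 of 11 (0.10 to 0.95). At 56715805 the call was lost without cystine-restricted replicate 1 or 2 or full-medium replicate 2 (log2 differences 0.56, 0.60 and 0.53). It was also lost without the variance trend (limma adjusted p 0.057) and with the peaks of a region summed (0.12). At 56640704 the call was lost without cystine-restricted replicate 1 or 2 or full-medium replicate 2 (log2 differences 0.70, 0.74 and 0.36). Summed peaks lost it there too (limma adjusted p 0.29).

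For tag density, chosen with its alternatives after the data were seen, centring gave 850 higher and 757 lower, 2 of 4 and a median of 0.29, and leaving out a library 2501 (cystine-restricted replicate 1) to 4798 higher and 16 to 70 lower, with 4 of 4 each time and medians of 0.64 to 0.78. The replicate block changed no call at the 4 regions in either measure, with medians of 0.65 and 0.70.

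Regions shared by the cystine-restricted libraries alone numbered 0 when equal numbers of top peaks were taken, 0 at 50% reciprocal overlap, 2 to 4 with a library left out (the definition being looser), and 4 and 5 within same-numbered pairs (replicate block). Pair 2 alone gave 7 regions in both media and 1 in full medium only, and leaving out a library 4 to 5 and 0 to 1. The ratio of peak numbers was 1.29 to 2.0 with a library left out, 1.25 with equal numbers of top peaks and 1.62 with the replicate block. A flank of 10 kb changed no count. Beyond these constructions the cause was not tested. The lowest listed pileup was 6 or 7 tags, and lower pileups are not known.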
